A study of Caenorhabditis elegans with 2 samples.

Results

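The genes rpr-1, mrpr-1 and yrn-1 encode the RNA of RNase P, the RNA of RNase MRP and the Y RNA of Caenorhabditis elegans. They are the 3 genes with these names among the 46890 nuclear genes of the annotation (Ensembl release 115, WBcel235), and membership rests on the name alone; they were picked as a set with earlier results of these data known. Binding was measured by chromatin immunoprecipitation followed by sequencing (ChIP-seq) with an anti-GFP antibody. The worms were strain RW12251, in which the endogenous snpc-1.2 gene on chromosome III carries an inserted TY1, EGFP and 3xFLAG tag (allele st12251). By its name SNPC-1.2 belongs to SNAPc, the complex that activates snRNA genes. There was 1 group, whole L4 larvae at 48 hours, synchronised as starved L1 larvae, with 2 biological replicates, and no second condition or control library was analysed here. All tissues of the animal contribute to each value, and all values come from 1 tagged strain.

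RNase P is the endonuclease that removes the 5' leader from precursor tRNAs, and its RNA subunit is catalytic. RNase MRP is a related particle that shares most of its protein subunits with RNase P and cleaves precursor ribosomal RNA. Y RNAs are short RNAs bound by the Ro protein, which in C. elegans is the product of rop-1 and acts in RNA quality control. In human cells the genes for these 3 kinds of RNA are transcribed by RNA polymerase III from promoters that lie outside the transcribed sequence, with a proximal sequence element bound by SNAPc and a TATA box. Transfer RNA genes, by contrast, have their promoter elements inside the gene.

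The upstream sequences of mrpr-1 and yrn-1 are shown first. They carry an element that the 3 genes have in common with part of the snRNA, trans-splicing RNA and snoRNA genes. Each sequence runs from -80 to -1 bp of the annotated 5' end, 5′ to 3′ on the gene's strand, and was read from the RefSeq genome (WBcel235). Capitals mark the fixed letters of the best match to a gapped word (AACCC, then 6 bases of any kind, then TGTC), and the 6 letters of TATATA where they follow it. The snRNA genes are the annotation's F54D8.7 and R07E5.16 copies with the highest peak among those with both words, and sls-2.17, which encodes an SL2 RNA (it is spliced onto messages of downstream operon genes), is shown as a gene with the gapped word and no TATATA.
mrpr-1 (chrII:7200153-7200232, plus strand): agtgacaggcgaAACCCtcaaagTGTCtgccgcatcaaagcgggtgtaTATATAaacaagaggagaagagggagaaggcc
yrn-1 (chrIV:7499428-7499507, plus strand): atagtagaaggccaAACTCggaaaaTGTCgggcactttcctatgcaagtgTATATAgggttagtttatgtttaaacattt
F54D8.7 (chrIV:4885650-4885729, minus strand): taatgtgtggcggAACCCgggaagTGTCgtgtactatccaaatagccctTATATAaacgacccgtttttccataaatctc
R07E5.16 (chrIV:4930874-4930953, plus strand): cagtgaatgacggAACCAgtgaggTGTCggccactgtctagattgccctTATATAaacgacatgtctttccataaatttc
sls-2.17 (chrIV:5317369-5317448, minus strand): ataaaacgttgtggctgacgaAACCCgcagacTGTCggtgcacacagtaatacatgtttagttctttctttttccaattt

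The gapped word was found without the 3 genes. It is the word of 5 letters, a gap of up to 12 bases and 4 letters that the most upstream windows held (the 100 bp before the 5' end, gene strand) among the 57 snRNA and SL2 RNA genes with a peak: 26 of 57 (45.6%) had it exactly. The next word, ACCCG with a gap of 5 bases and TGTC, was in 24 windows, so the choice was close. At the G of that next word mrpr-1 has a T. For the chosen word all 9 fixed letters matched in rpr-1 (-66 to -52 bp) and mrpr-1 (-68 to -54 bp). In yrn-1 8 letters matched, from -66 to -52 bp, with the substitution C4T (positions counted from 1 at the 5' end of the word). R07E5.16, shown above, had 1 mismatch too, C5A. Of 46884 windows upstream of nuclear genes, 94 (0.200%) held the word exactly on the gene's strand, or 102 (0.218%) on either strand, and 409 (0.872%) held it with at most 1 mismatch. The exact word on the gene's strand was in 27 of 346 snoRNA genes (7.80%), 22 of which had a peak, and in 1 of 612 tRNA genes. Of all 346 snoRNA genes, 93 (26.9%) had a peak. The exact word was also in 6 of 19973 protein-coding genes and 8 of 15363 piRNA genes.

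TATATA followed the gapped word at the same distance in the 3 genes. It began at -30 bp in rpr-1, -32 bp in mrpr-1 and -30 bp in yrn-1, which is 36 bp after the start of the word in each. In mrpr-1 the word TATATA overlaps a further copy that begins at -34 bp and a TATAAA at -30 bp. The distance of 36 bp in mrpr-1 therefore depends on which copy is counted. A further TATATA stands at -83 bp in yrn-1. TATATA stood in the 100 bp upstream of 5.07% of all nuclear genes on the gene's strand, and within the wider window, from 250 bp before to 50 bp after the 5' end, in 12.3% on either strand. The tRNA B-box word GGTTCGA and the upstream word of piRNA genes, CTGTTTCA, were not in the wider window of rpr-1, mrpr-1 or yrn-1 on either strand, against 2.30% and 17.1% of all genes' windows. This window holds the first 50 bp of each gene, so the rest of the gene was not searched for a B box.

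Both words together, the gapped word with at most 1 mismatch and TATATA beginning 28 to 42 bp after its start, were found upstream of 20 of 46884 genes (0.0427%). The gapped word was exact in 7 of the 20 and had 1 mismatch in 13. These were the 3 genes described here, 13 snRNA genes, the snoRNA gene W05B2.9, and the protein-coding genes glo-1, pptr-1 and ptr-19. The distance was 36 bp in the 3 genes (in mrpr-1 to the copy at -32 bp), the 13 snRNA genes and W05B2.9. It had other values from 31 to 42 bp in the protein-coding genes. In the 8 snRNA genes with a peak the gapped word began at -67 bp and TATATA at -31 bp. In the 5 without a peak they began at -66 and -30 bp. Those are also the places in rpr-1, which had a peak, and in yrn-1, which had none. In mrpr-1 the places were -68 and -32 bp. Apart from F54C8.10, the 13 snRNA genes are copies named R07E5.16 or F54D8.7. The word and this range of distances were chosen after the sequences had been seen, so these counts are a description.

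**Figure D1:**
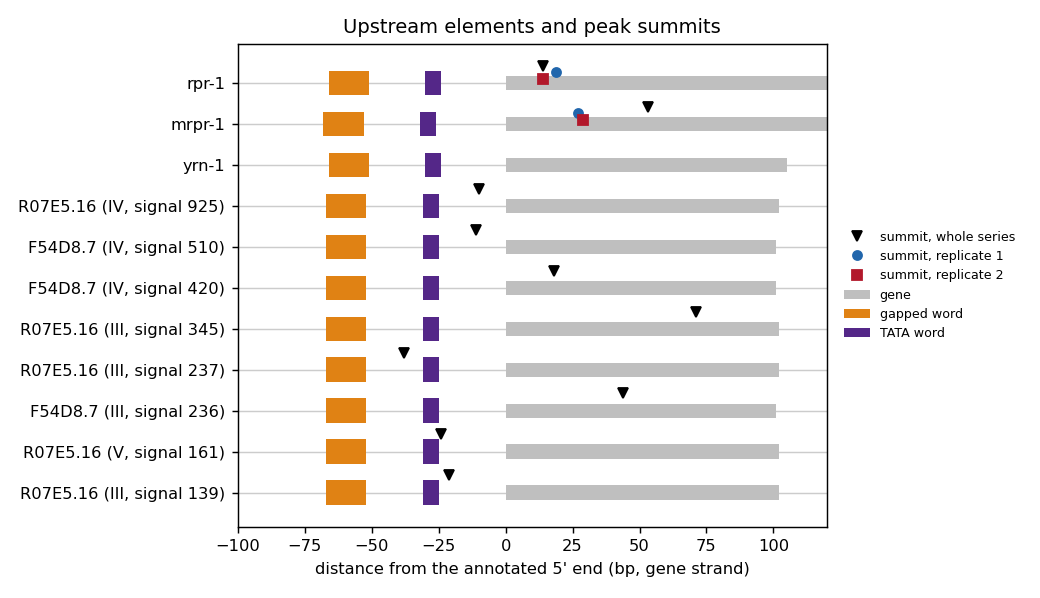
Upstream words and summits of rpr-1, mrpr-1, yrn-1 and the 8 snRNA genes with both words and a peak, by distance from the annotated 5' end (bp, gene strand). Orange bars are the gapped word, purple bars TATATA, grey bars the gene (those of rpr-1 and mrpr-1 run past the right edge), and markers the summits; the snRNA genes have their chromosome and whole-series signal value beside the name and show the whole-series summit. The words lie at nearly the same places in all rows, and yrn-1 has no summit.

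The gene ends also held a run of T, the sequence at which RNA polymerase III terminates. In mrpr-1 a TTTT spans the annotated 3' end, in rpr-1 a run of T does, and in yrn-1 a TTTT begins at the first base after it. The last 15 bases of the gene and the next 15 are shown, 5′ to 3′, with each TTTT in capitals.
mrpr-1 (chrII:7200404-7200433, plus strand): ctgatcgtcatgcTTTTgcaacaTTTTgaa
yrn-1 (chrIV:7499598-7499627, plus strand): tactttgaccgctccTTTTggatttccgag
A TTTT within 30 bp of the annotated 3' end was present in 67.0% of all genes, so its presence did not set the 3 genes apart.

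The binding data covered rpr-1 and mrpr-1, and not yrn-1. Occupied here means that the annotated 5' end had a summit no more than 250 bp away. In the whole-series thresholded list, made from both replicates and holding 2829 nuclear peaks, 2 of the 3 genes were occupied, beside 6.91% of all nuclear genes and 2.48% of protein-coding genes. The same 2 genes were occupied in each replicate's own thresholded list (1411 nuclear peaks in replicate 1 and 1737 in replicate 2), beside 3.43% and 4.57% of all genes. The deposited signal value is the authors' peak caller's value for the peak, with no stated scale, and read depth is unknown, so values were ranked within a list. Since each member is 1 gene and there is 1 group of 2 samples, no test was made, and members are set beside the spread between replicates and the range of other classes.

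The RNase P RNA gene rpr-1 (I, 13463955 to 13464207, plus strand, 253 bp) lies within an intron of ints-8, which encodes a subunit of the Integrator complex and is transcribed from the opposite strand. Its peak had a signal value of 547 in the whole-series list, 258 in replicate 1 and 278 in replicate 2. It ranked 89 of 2829 nuclear peaks, and 90 of 1411 and 97 of 1737 in the replicates. The peak was therefore above 96.9% of the whole-series peaks and above 94.0% ± 0.562 (SD, n = 2) of the peaks in the replicates' own lists, so that its standing hardly varied between replicates. Among the 274 peaks of chromosome I it was the highest in the whole-series list, the highest of 153 in replicate 2 and the second of 124 in replicate 1 (rank 2). Outside chromosome IV, which holds most of the peaks that ranked above it, its rank was 7 of 1468, with 11 of 771 and 7 of 862 in the replicates. The next thresholded summit was 23.7 kb away in the whole-series list, against 16.2 kb for mrpr-1.

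The RNase MRP RNA gene mrpr-1 (II, 7200233 to 7200418, plus strand, 186 bp) lies between genes, 131 bp before pcrg-1 and 668 bp from E04F6.6. Its peak had a signal value of 242 in the whole-series list, 132 in replicate 1 and 109.7 in replicate 2. It ranked 354 of 2829 nuclear peaks in the whole-series list, 280 of 1411 in replicate 1 and 492 of 1737 in replicate 2. It was above 87.5% of the whole-series peaks, and above 80.2% and 71.7% of the peaks of the replicates (75.9% ± 6.0, SD, n = 2). The standing of mrpr-1 thus differed more between replicates than that of rpr-1. On chromosome II it ranked 18 of 288 peaks in the whole-series list, 15 of 136 in replicate 1 and 33 of 145 in replicate 2. Outside chromosome IV its rank was 133 of 1468, with 102 of 771 and 215 of 862 in the replicates. The summit lay 263 bp from the 5' end of pcrg-1, just outside the 250 bp limit, and the peak itself ended at 222 bp of mrpr-1, before that gene.

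Replicate 2 had a higher value than replicate 1 at rpr-1 and a lower one at mrpr-1. The log2 ratio of replicate 2 to replicate 1 was 0.11 at rpr-1 and -0.27 at mrpr-1. Over 961 pairs of peaks with summits within 100 bp in the replicates' own lists, this ratio had a median of 0.13 and an SD of 0.41, and central 95% of the values lay between -0.56 and 0.87. For the 410 pairs with a signal value of at least 100 in both, as at rpr-1 and mrpr-1, the SD was 0.27. The central 95% then lay between -0.37 and 0.67. Each gene's difference between replicates was thus within the spread over shared peaks, with mrpr-1 toward the lower end of this narrower range. The signal value of rpr-1 was 2.25 times that of mrpr-1 in the whole-series list, 1.95 times in replicate 1 and 2.53 times in replicate 2. As log2 ratios these are 1.17, 0.97 and 1.34, each larger than the SD of the ratio between replicates.

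**Figure D2:**
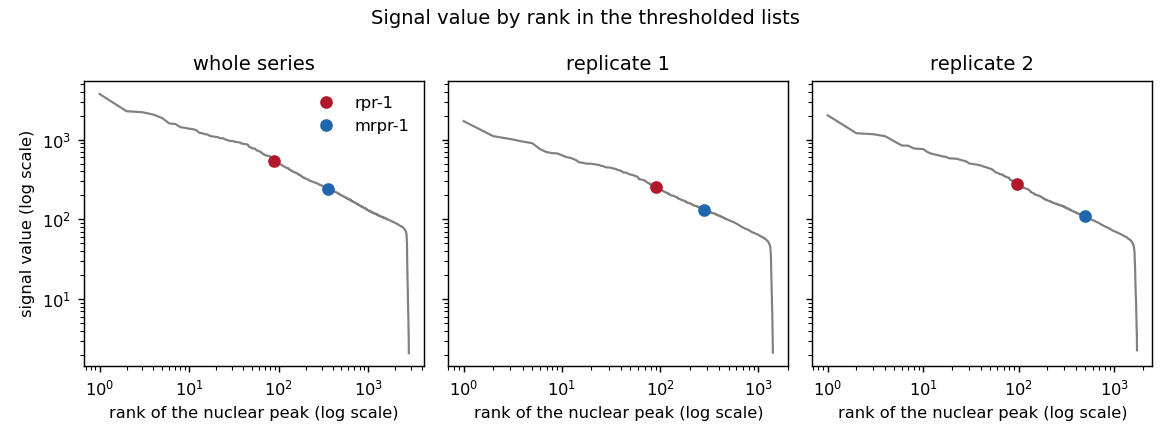
Signal value (log scale) against rank (log scale) for all nuclear peaks of the whole-series and each replicate's thresholded list, with rpr-1 in red and mrpr-1 in blue. Ranks of rpr-1 are 89, 90 and 97, while those of mrpr-1 run from 280 to 492; yrn-1 has no peak.

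The 4 ranked lists hold all calls with their global irreproducible discovery rate (IDR). It is the estimated share of irreproducible calls among those at least as reproducible between the sets compared. Both peaks stand in them with the same coordinates and signal values as in the thresholded lists, so their presence there is no separate evidence. The −log10 of the IDR at rpr-1 was 5.00, the cap, in each of these lists. At mrpr-1 it was 4.20 in the list of the true replicates, 4.24 in the other whole-series list, 4.16 in replicate 1 and 3.55 in replicate 2. Ranked by signal value among the 83957 nuclear calls of the list of the true replicates, rpr-1 was at 95 and mrpr-1 at 375.

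In comparison with other short RNA genes, rpr-1 was in the upper part of each class, and mrpr-1 was near the middle of the snRNA, SL2 RNA and snoRNA genes and higher among the tRNA genes. Among occupied genes of the whole-series list, 4 of 42 snRNA genes, 3 of 15 SL2 RNA genes, 33 of 405 tRNA genes and 11 of 93 snoRNA genes had a higher signal value than rpr-1. For mrpr-1 these counts were 19, 7, 115 and 41. The class counts, medians and positions are per gene, so a peak near several genes of a class, as at some neighbouring tRNA genes, counts for each. The class medians were 235 for snRNA, 221 for SL2 RNA, 183 for tRNA and 225 for snoRNA genes, so mrpr-1, at 242, was slightly above the first, second and last and further above that of tRNA genes. In replicate 2 alone mrpr-1, at 109.7, was below the medians of snRNA (139), SL2 RNA (126) and snoRNA genes (125) and above that of tRNA genes (105). In replicate 1, at 132, it was above the medians of all 4 classes, which ran from 102 to 123. The order of mrpr-1 and the snRNA, SL2 RNA and snoRNA medians thus depended on the replicate, while mrpr-1 was above the tRNA median in both.

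By the mean absolute log2 ratio of signal values over the 2 replicates, the genes most like rpr-1 among 423 snRNA, SL2 RNA, tRNA and snoRNA genes with peaks in both were a tRNA-Gln gene, Y4C6B.t1 (283 and 263; mean ratio 0.107), the F54D8.7 snRNA gene whose promoter is shown above (228 and 286; 0.110), and a tRNA-Gly gene, Y51H4A.t3 (269.7 and 312; 0.114). These 3 genes lie on chromosome IV. Most like mrpr-1 were a tRNA-Arg gene, F47G6.t1 (131 and 117; 0.052), the snoRNA gene Y53F4B.48 (137 and 115; 0.056) and a tRNA-Pro gene, C18A11.t1 (130.1 and 103; 0.057). The likeness rests on 2 values per gene.

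Summits lay inside both genes, downstream of the upstream words. At rpr-1 the summit was at 14 bp from the 5' end in the whole-series list, 19 bp in replicate 1 and 14 bp in replicate 2, so that the positions agree within 5 bp. At mrpr-1 it was at 53 bp in the whole-series list, 27 bp in replicate 1 and 29 bp in replicate 2. The whole-series summit of mrpr-1 thus lay downstream of both replicates' summits. The start of the gapped word was 80 bp upstream of the whole-series summit at rpr-1 and 121 bp at mrpr-1. The peak of rpr-1 was 251 bp wide, from -122 to 128 bp, which is narrower than the 340 bp that 82.5% of the whole-series peaks have. The peak of mrpr-1 had that commonest width, with the summit at its exact centre, as it had in both replicates' own lists (310 and 316 bp).

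Other classes had different typical positions. The median summit was at -20 bp for occupied snRNA genes (interquartile range -27.0 to 10.8), -7 bp for SL2 RNA genes, -27 bp for snoRNA genes and 18 bp for tRNA genes (2.0 to 34.0). The summit of rpr-1 was farther downstream than that of 32 of 42 snRNA genes and 72 of 93 snoRNA genes, and that of mrpr-1 than 35 and 82 of them. In the replicates' own lists the mrpr-1 summit was farther downstream than that of 30 of 37 snRNA genes in replicate 1 and 34 of 38 in replicate 2. For rpr-1 these counts were 28 and 33. Among the 8 occupied snRNA genes with both words, the summits ran from -38 to 71 bp, and the positions of rpr-1 and mrpr-1 lay within that range.

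**Figure D3:**
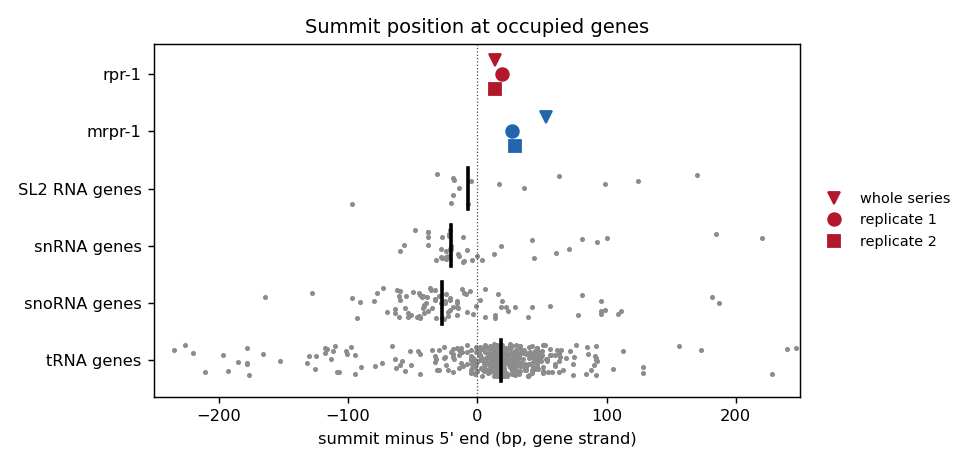
Summit minus 5' end (bp, gene strand) for the occupied genes of 4 classes in the whole-series list (grey points, 1 per gene, spread vertically for visibility; black bars are medians) and for rpr-1 and mrpr-1 in 3 thresholded lists (triangle whole series, circle replicate 1, square replicate 2). The markers of rpr-1 and mrpr-1 lie to the right of the medians of snRNA, snoRNA and SL2 RNA genes.

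The Y RNA gene yrn-1 (IV, 7499508 to 7499612, plus strand, 105 bp) had no call in any of the 8 lists within 1 kb of its 5' end. It lies within an intron of the protein-coding gene F55G1.15, on the opposite strand, and overlaps the exon of the non-coding RNA gene F55G1.20, also on the opposite strand. The nearest thresholded summit was 6741 bp downstream in the whole-series list (signal value 150.0), 6728 bp in replicate 1 (73.2) and 6761 bp in replicate 2 (93.5). The ranked lists, which also hold weak calls down to a signal value of 2.00, had no summit over 17.4 kb, from -10618 to 6741 bp, in the list of the true replicates. The replicates' own ranked lists were empty over 17.1 and 17.4 kb. Of all nuclear genes, 12.9% were at least as far from a call in the list of the true replicates. The median distance over all nuclear genes in that list was 246 bp. On chromosome IV 2.26% of genes were as far. Both shares count piRNA genes, of which the annotation holds 15363, and neither was worked out without them.

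An empty stretch was not limited to yrn-1. Beyond its own peak, mrpr-1 had no further ranked summit before 20.7 kb downstream in the list of the true replicates, with the next call upstream at -1898 bp. At rpr-1 the neighbouring calls were at -646 and 2048 bp, with a signal value of 2.84 at the former. Within 250 bp of the 5' end all 50-base words were unique at each of rpr-1, mrpr-1 and yrn-1. A missing call means that no peak was found at the unknown depth of these libraries, not that SNPC-1.2 was absent.

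**Figure D4:**
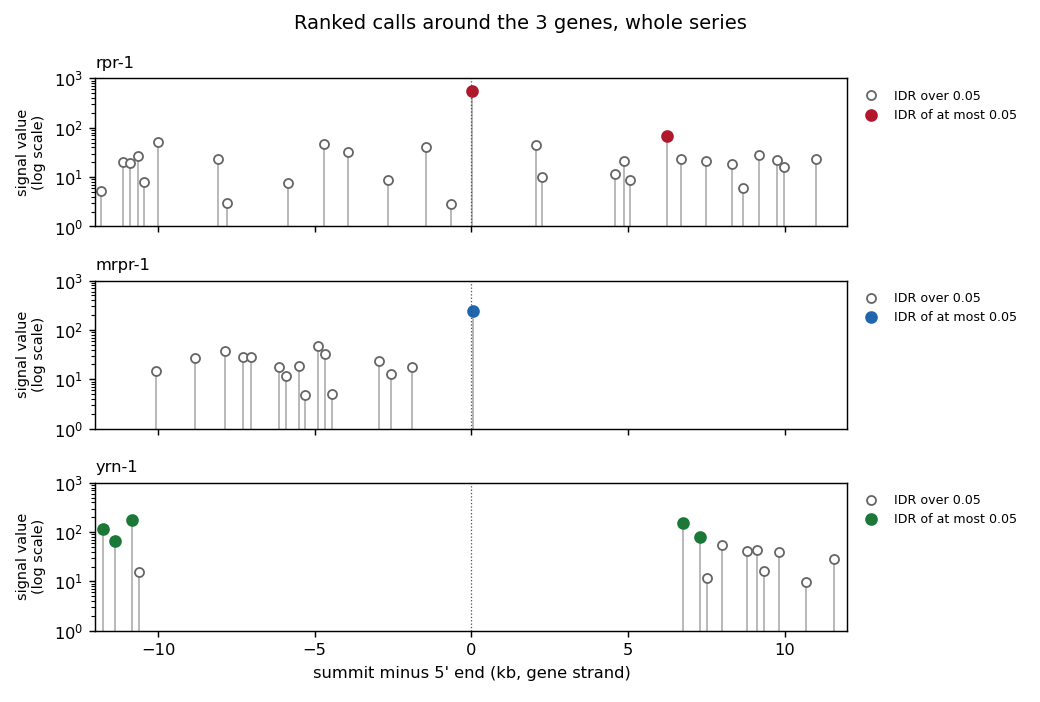
Calls of the whole-series ranked list of the true replicates within 12 kb of the 5' end of each gene, as signal value (log scale) against distance (kb, gene strand). Filled points have an IDR of at most 0.05; rpr-1 and mrpr-1 have a call of 547 and 242 at the 5' end, and yrn-1 has none between -10618 and 6741 bp.

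Among the 17 genes with both words 36 bp apart, at most 1 mismatch in the gapped word allowed, 10 were occupied: rpr-1, mrpr-1 and 8 snRNA genes, with signal values from 139 to 925. The 8 snRNA genes are among those from which the gapped word was taken, so their peaks are not independent of it. The 7 without a thresholded summit were yrn-1, W05B2.9 and 5 snRNA genes, F54C8.10 and 4 copies named R07E5.16. In those 5 snRNA windows between 54.4% and 84.5% of the sequence was unique, against 71.2% to 87.2% in the 8 occupied ones and all of it at yrn-1 and W05B2.9. The 6 genes other than yrn-1 had a ranked call at a distance of 9 bp (W05B2.9, signal value 21.0) to -670 bp (an R07E5.16 copy, 23.3), and yrn-1 had its nearest at 6741 bp. Of these 17 genes, 6 of the 7 with the exact gapped word were occupied, and 4 of the 10 with 1 mismatch. Among the snRNA genes these counts were 4 of 4 and 4 of 9, and yrn-1 is among the genes with 1 mismatch and no summit. Apart from F54C8.10, these snRNA genes are copies that share the names R07E5.16 and F54D8.7, so they are not separate observations. Since the word was taken from the occupied snRNA genes, the counts by mismatch are not independent of it. The snRNA genes also split by the places of the words. These were -67 and -31 bp in the 8 occupied genes and -66 and -30 bp in the 5 others. Both rpr-1 and yrn-1 have the latter places. Whether the mismatch or the place bears on the missing call at yrn-1 was not tested.

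The genes of proteins that act with these RNAs had no thresholded summit within 250 bp of the 5' end. Of 26 names listed for RNase P and MRP proteins, tRNA end processing, the Ro protein and RNA polymerase III with its initiation factors, 12 were in the annotation and 0 of 12 were occupied, beside 2.48% of protein-coding genes. Among them the RNase P and MRP protein genes popl-1, popl-4, popl-5 and popl-7 had their nearest thresholded summit between -1310 bp (popl-7) and -67543 bp (popl-5). The Ro gene rop-1 had its nearest at -86949 bp. In the ranked list of the true replicates 8 of 12 had a call within 250 bp, beside 35.2% of protein-coding genes, with IDRs of at least 0.306 except at rpc-2, a subunit of RNA polymerase III, whose call of 75.3 at 97 bp had an IDR of 0.00825 and was not in the thresholded list. With so low a background, the count of 0 does not set these genes apart.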

How the data were processed

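The data are 8 lists of ChIP-seq peaks on assembly ce11 from 2 samples, with sonicated fragments of 200 to 800 bp per the labels. Filtered alignments with a control were the input, per the notes the authors deposited. No version, aligner or peak caller is named in these sources. The deposited signal value is the peak caller's own. The score, as deposited, is 125 times log2 of 1 over the IDR, capped at 1000, worked out from the values, and the ranked lists hold the −log10 of the IDR as deposited, capped at 5. Which of both whole-series ranked lists sets replicate against replicate was read from its values.

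Summits (peak start plus offset) were compared with annotated 5' ends in Python 3.11.15. Peaks on the mitochondrial genome (13 of the whole-series list with a threshold) were not used. The classes are the annotation's, with sls-2 genes as SL2 RNA. No base was shared by 75% of the 57 snRNA and SL2 RNA windows at a fixed distance, the search listed first, the highest share being 64.9%; the gapped word search, chromosome ranks and empty stretches were added after the data were seen. Named genes are the members, genes that overlap or adjoin them, the 3 genes most like each, the listed protein genes and the genes with both words. The members and lists were chosen with earlier results of these data known. Searches were tested on simulated data. Alternatives were other lists, windows, overlap rules and IDR limits, and each replicate left out. Bases of rpr-1 are not printed here.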

Additional observations from a re-analysis of the deposited data

How the results depend on the processing

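The count of 2 occupied genes of 3 was unchanged with a limit of 100 or 500 bp and with peaks that overlap the gene. Either replicate alone gave 2 too, as did the conservative list and the ranked list at an IDR of at most 0.05. The conservative and ranked lists hold the same peaks at rpr-1 and mrpr-1, so they are no separate evidence. An IDR limit of 0.01 removed 0 peaks and is void. Leaving out 1 replicate gave signal values of 258 to 278 at rpr-1 and 109.7 to 132 at mrpr-1, where the whole-series list had 547 and 242; the list from both libraries has its own, unstated scale. It placed rpr-1 above 93.6% to 94.4% of peaks and mrpr-1 above 71.7% to 80.2%, and the summits at 14 to 19 bp and 27 to 29 bp. In the ranked list at an IDR of at most 0.05, rpr-1 was above 98.2% of peaks, a set with more weak calls. Keeping mitochondrial peaks, or 1 summit per group of overlapping peaks (2674 groups), moved the percentages by less than the spread between replicates. For yrn-1 no alternative gave a value within 250 bp. No paired analysis was possible because there is 1 group. Read depth is unknown, so weak binding at yrn-1 could not be assessed.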
